A study of Mus musculus with 9 samples.

Results

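The inflammatory cytokines described here are Tnf, Il6, Il1a, Il1b, Il1rn, Il10, Il18, Il12b, Il27 and Lif, 10 genes of the 28137 in the expression table. They were chosen by name as the main inflammatory and inflammation-limiting cytokines of macrophages, though with earlier results of these data known. All 9 libraries came from RAW264.7, a mouse macrophage-like leukemia line. Each was transfected for 6 h with 60 nM of small interfering RNA (siRNA), kept in complete medium for 12 h and given 100 ng/ml lipopolysaccharide (LPS) for 24 h, according to the sample descriptions. The groups were NC siRNA, a control sequence, SFRP2 siRNA and RAB6A siRNA, with 3 libraries in each. No group went without LPS, so the rise of these genes after LPS was not measured, and the control carried both the transfection and the LPS. The sample titles carry the tag "6H", and the study's methods give another transfection reagent and medium, a lower siRNA dose, a longer time after transfection and added interferon-gamma, so the exact exposure is uncertain. The labels do not say whether the 3 libraries of a group came from separate cultures or whether the 3 SFRP2 libraries used different siRNAs, so the p-values measure the spread between these libraries, which may be technical.

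LPS is recognised by Toll-like receptor 4, which switches on NF-kappaB, AP-1 and interferon regulatory factors. These start transcription of cytokine genes within a short time. Many of the resulting mRNAs carry AU-rich elements in the 3′ untranslated region (UTR), to which proteins of the Zfp36 family bind and cause rapid decay. Tnf, Il6, Il1a and Il1b promote inflammation, Il1rn encodes the antagonist that blocks the interleukin-1 receptor, and Il10 encodes a cytokine that restrains macrophages. Il12b encodes a chain shared by interleukins that act on T cells, Il27 encodes a chain of a cytokine completed by the product of Ebi3, and Il18 is made as a precursor that caspase-1 cuts. Lif belongs to the family of Il6 and signals through the shared receptor chain Il6st. RAB6A is a small GTPase of Golgi transport, and SFRP2 is a secreted modulator of Wnt signalling.

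The promoter sequences of 4 cytokines are shown because their transcripts went in opposite directions with RAB6A siRNA, Tnf and Il6 lower, Il1b and Lif higher. Each runs 5′ to 3′ on the strand of the gene, from 250 bases before to 50 bases after the annotated start (RefSeq, GRCm38.p6). Capitals mark matches to the NF-kappaB motif, the AP-1 motif TGANTCA, the C/EBP motif TTGCNNAA, the cAMP response motif TGACGTCA (each on both strands) and the TATA box TATAAA (on the strand of the gene).

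Tnf, chr17:35201958-35202257, minus strand: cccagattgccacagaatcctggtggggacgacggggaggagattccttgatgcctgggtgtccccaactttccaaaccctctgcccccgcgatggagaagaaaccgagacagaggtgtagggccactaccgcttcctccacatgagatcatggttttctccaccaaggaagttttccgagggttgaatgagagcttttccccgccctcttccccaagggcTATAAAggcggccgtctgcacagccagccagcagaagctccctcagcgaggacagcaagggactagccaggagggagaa
Il6, chr5:30012864-30013163, plus strand: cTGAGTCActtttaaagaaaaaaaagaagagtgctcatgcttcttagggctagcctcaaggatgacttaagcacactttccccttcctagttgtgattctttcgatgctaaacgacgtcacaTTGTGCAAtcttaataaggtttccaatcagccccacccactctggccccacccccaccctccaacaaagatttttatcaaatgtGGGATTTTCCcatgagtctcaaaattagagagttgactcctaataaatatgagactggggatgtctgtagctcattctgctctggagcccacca
Il1b, chr2:129371090-129371389, minus strand: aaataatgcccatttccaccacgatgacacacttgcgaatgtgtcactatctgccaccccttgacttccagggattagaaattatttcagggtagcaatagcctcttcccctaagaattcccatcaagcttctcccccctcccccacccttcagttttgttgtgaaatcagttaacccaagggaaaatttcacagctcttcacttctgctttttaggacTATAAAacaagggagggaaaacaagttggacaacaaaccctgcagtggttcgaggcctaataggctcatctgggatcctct
Lif, chr11:4257318-4257617, plus strand: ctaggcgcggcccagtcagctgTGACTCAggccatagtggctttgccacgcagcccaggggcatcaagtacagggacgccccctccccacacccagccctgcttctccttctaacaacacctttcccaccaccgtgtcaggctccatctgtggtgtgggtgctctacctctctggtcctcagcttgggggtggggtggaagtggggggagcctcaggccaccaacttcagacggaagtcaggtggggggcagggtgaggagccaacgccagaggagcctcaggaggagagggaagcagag

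No marked match overlapped another in these 4 windows. The promoter table held 8 of the 10 cytokines, and those of Il10 and Il27 are only named here. A cytokine was counted if any of its annotated start sites had a match, and so was each of the 27025 genes it is set against. The NF-kappaB motif was found in 1 of the 8, Il6, against 5.14% of all genes (4.51% of the 32851 promoters). The AP-1 motif was found in 4 of the 8 (Il6, Il1a, Il1rn and Lif), against 8.97% of genes, and in Il1rn it lay at 1 of 3 start sites. The TATA box was found in 3 (Tnf, Il1a and Il1b), against 9.77%, and the C/EBP motif in 1 (Il6), against 12.2%. The cAMP response motif was found in none of the 8, against 2.03% of genes. Genes that were lower with RAB6A siRNA (Tnf, Il6, Il1a and Il1rn) and genes that were higher (Il1b and Lif) both had a TATA box or an AP-1 match. A match is a run of letters and does not show that a factor was bound. Sites outside these windows or with other letters were not searched, so a missing match does not show that a gene lacks a site.

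The AU-rich heptamer TATTTAT, searched on the transcript strand, was found in the 3′ UTR of 8 of the 10 cytokines, and 6 of the 10 held 3 or more. Among the 21037 protein-coding genes with an annotated 3′ UTR (GENCODE M21, the transcript with the longest coding sequence), 25.5% held the heptamer and 3.58% held 3 or more. In the transcripts used, Il1rn (1306 bases) and Il18 (123 bases) held none. Other transcripts and other AU-rich sequences were not searched, so a missing heptamer does not show that a gene lacks such an element. Tnf held 8 in 764 bases, Lif 5 in 3180, Il10 4 in 706, Il27 4 in 285, Il1a 3 in 1101, Il1b 3 in 459, and Il6 and Il12b 1 each. The 30 bases with the most heptamers are shown for 3 cytokines, with the heptamers in capitals, because they stand for the largest, an intermediate and a small cluster among genes that went in different directions (GRCm38).

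Tnf, chr17:35199678-35199707, minus strand: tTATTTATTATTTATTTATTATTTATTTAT
Il27, chr7:126589089-126589118, minus strand: cagaTATTTATttcttggaTATTTATTTAT
Il6, chr5:30019716-30019745, plus strand: actttaagttaatttatgattgaTATTTAT

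The Tnf window held 5 heptamers, the Il27 window 3 and the Il6 window 1. Tnf and Il6 were lower and Il27 higher with RAB6A siRNA, and Il1rn, with no heptamer in the transcript used, was lower.

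Values are FPKM (fragments per kilobase of transcript, scaled to the mapped fragments of the library), as deposited, and thus levels per length that can be compared between genes. Reads were recovered from FPKM and exon length, and those of named genes summed to between 32297214 and 46544869 per library. The library depth implied by the FPKM scaling was 32758729 to 47149258, and every NC library was deeper than every other library. Of the macrophage markers, 8 of 9 had a mean of at least 1 FPKM in every group, and Mertk was near 0. The summed level of the 9 was 4563 to 5032 FPKM with NC siRNA, 4034 to 4365 with SFRP2 siRNA and 3957 to 4121 with RAB6A siRNA. Markers of other cell types, 11 of 15 listed in the table, summed to between 1.93 and 3.24 FPKM, and none had a mean of 1 in any group. The targeted gene Rab6a was at 24.3, 27.3 and 25.5 FPKM with NC siRNA and at 21.2, 20.7 and 20.4 with RAB6A siRNA. This is a log2 fold change of −0.31 (SE 0.06, n = 3, limma, adjusted p = 0.0024), with no overlap between the groups. Of all genes tested in that comparison, 74.1% had an adjusted p under 0.05 and 77.4% did not overlap. Such a fall therefore does not by itself show that the target was hit. Sfrp2 was at 0.0197 to 0.0567 FPKM in all 9 libraries, from 2 to 4 reads, so its level could not check the labels of the SFRP2 siRNA libraries.

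Tnf and Il1rn dominated the cytokine transcripts with NC siRNA. Tnf, at 1050 ± 49.2 FPKM (SD, n = 3), was the 25th most abundant of the 28137 genes, and Il1rn, at 633 ± 12.2 FPKM, the 47th. Il27 followed at 131 ± 4.97 FPKM and Il6 at 95.9 ± 9.77 FPKM. A middle tier held Il18 at 17.7 ± 2.03, Il1b at 15.0 ± 0.590, Lif at 9.95 ± 0.411 and Il1a at 8.11 ± 1.32 FPKM. Il10 stood at 3.62 ± 0.345 FPKM, and Il12b, at 0.277 ± 0.135 FPKM from 14 to 35 reads, was close to the detection limit. No neighbours in this order overlapped in their 3 NC libraries. With SFRP2 siRNA the order was the same, but the ranges of Il27 and Il6 overlapped, as did those of Lif and Il1a. With RAB6A siRNA Il1b stood above Il18, and the ranges of Il1b and Il18, and of Il18 and Lif, overlapped. The antagonist transcript Il1rn was thus far above both agonist transcripts, Il1a and Il1b, in every library.

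**Figure D1:**
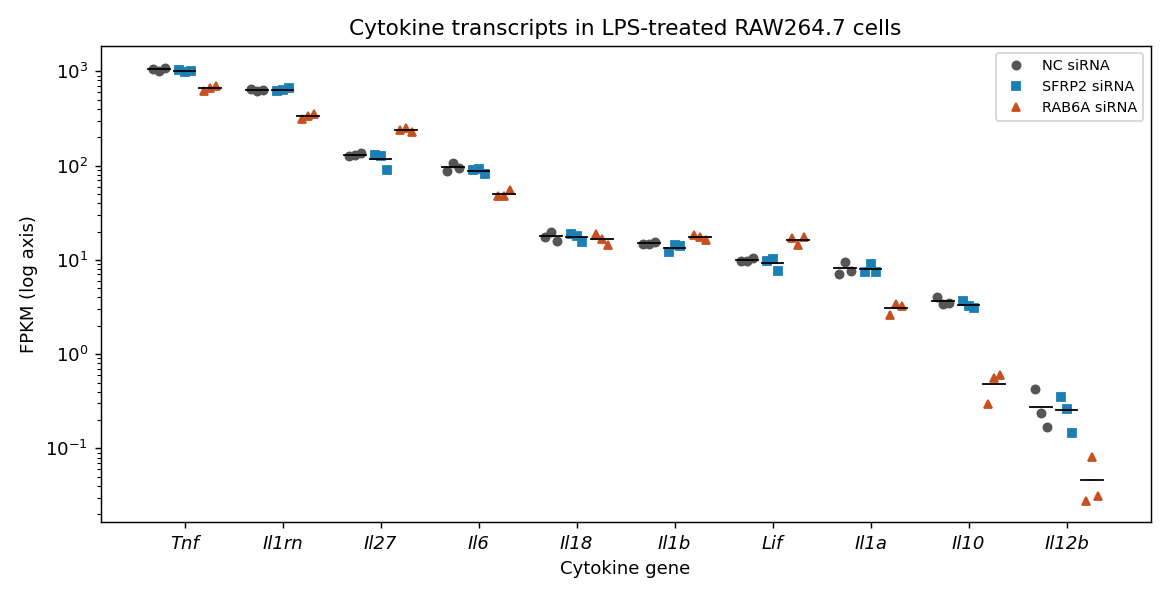
FPKM of the 10 cytokines (log axis) in each library, with points for libraries and black lines for the mean of 3. Tnf and Il1rn lie highest in every group, the NC and SFRP2 siRNA points lie side by side, and the RAB6A siRNA points lie lower for Tnf, Il1rn, Il6, Il1a, Il10 and Il12b and higher for Il27, Lif and Il1b.

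The comparison of SFRP2 siRNA with NC siRNA asks how the cytokine transcripts of LPS-treated cells differ after transfection with SFRP2 siRNA. Sfrp2 had 2 reads in each NC library and 2 to 4 with SFRP2 siRNA, so a lowering of its transcript could not be seen. None of the 9 cytokines tested passed the threshold (limma on log2(FPKM + 0.1), adjusted p under 0.05), and neither did any of the 12017 genes (0%). At an unadjusted p under 0.05 there were 0 of the 9 cytokines, against 18.5% of all genes. Il12b was below the filter of a mean of 0.5 FPKM and was not tested. The log2 fold changes ran from −0.19 for Il27 to 0.01 for Il1rn, with a median of −0.12, against −0.01 over all genes. With voom, an alternative fit on the recovered reads, 41 genes were called, none of them a cytokine described here.

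Tnf was at 1055, 998 and 1096 FPKM with NC siRNA and at 1033, 977 and 1004 with SFRP2 siRNA. The groups overlapped, and the log2 fold change of −0.06 had a 95% interval of −0.20 to 0.07. Il6 was at 87.0, 106 and 94.3 FPKM with NC siRNA and at 89.8, 91.2 and 81.0 with SFRP2 siRNA. Its log2 fold change of −0.13 had an interval of −0.33 to 0.07, and the groups overlapped. Il1b, the secreted agonist of the interleukin-1 receptor, was at 14.6, 14.7 and 15.7 FPKM with NC siRNA and at 12.2, 14.3 and 14.0 with SFRP2 siRNA. It was the single cytokine whose groups did not overlap (1 of 9, against 24.7% of all genes). Its log2 fold change was −0.16 (interval −0.33 to 0.01, limma, adjusted p = 0.299), and the exact permutation test gave 0.1, the smallest two-sided p that 3 against 3 allows. Il10 was at 4.02, 3.38 and 3.47 FPKM with NC siRNA and at 3.63, 3.24 and 3.12 with SFRP2 siRNA, with an interval of −0.34 to 0.11. Il27 and Lif shared a pattern in which the third SFRP2 library stood below the others. Il27 was at 131, 127 and 90.6 FPKM and Lif at 9.80, 10.2 and 7.71 FPKM in the SFRP2 siRNA libraries, against 126 to 136 and 9.67 to 10.4 FPKM with NC siRNA. The intervals were −0.51 to 0.13 for Il27 and −0.37 to 0.13 for Lif. Il1a, Il1rn and Il18 had log2 fold changes between −0.02 and 0.01, with intervals of −0.31 to 0.30, −0.11 to 0.13 and −0.27 to 0.22.

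The comparison of RAB6A siRNA with NC siRNA asks the same of RAB6A siRNA. The design cannot tell effects of lowering RAB6A from other effects of its siRNA. The cytokines split. Of the 9 tested, 5 were lower (Il10, Il1a, Il6, Il1rn and Tnf), 3 were higher (Il27, Lif and Il1b) and Il18 did not pass the threshold. The groups did not overlap for 8 of the 9. The response was broad across the genome, since 74.1% of the 12712 genes tested were called, 37.6% higher and 36.5% lower, and 77.4% did not overlap. The 8 of 9 called is therefore a share near the background. Past a log2 fold change of 1 in either direction there were 2 of the 9 cytokines, Il10 and Il1a, against 30.1% of all genes. With quantile normalization there were 4, with Tnf (−1.11) and Il1rn (−1.36) added. The median log2 fold change was −0.67 over the 9 cytokines and 0.03 over all genes. These are bulk cultures, so fewer cells of one state and less RNA per cell cannot be told apart.

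**Figure D2:**
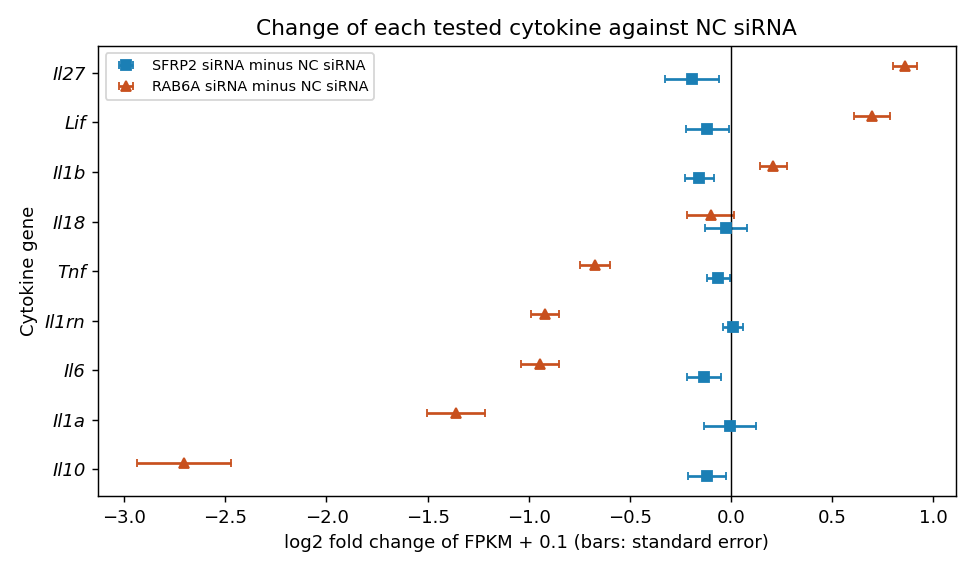
Log2 fold change of FPKM + 0.1 against NC siRNA for the 9 tested cytokines, with points for the estimate and bars for its standard error (3 libraries a group). SFRP2 siRNA values lie within −0.19 and 0.01, whereas RAB6A siRNA values run from −2.70 for Il10 to 0.86 for Il27.

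Il10, the inhibitory cytokine, had the largest change of the 9. It was at 4.02, 3.38 and 3.47 FPKM with NC siRNA and at 0.294, 0.565 and 0.606 FPKM with RAB6A siRNA, from 193 to 219 reads and 14 to 28 reads. Every RAB6A library was below every NC library, 7.42-fold on the means. The log2 fold change was −2.70 (SE 0.23, n = 3, limma, adjusted p = 3.1e-05), and 4.19% of all genes tested had a larger change in either direction. The size depends on the pseudocount, as it was −1.64 with a pseudocount of 1 FPKM. Il12b had 35, 22 and 14 reads with NC siRNA and 2, 6 and 2 with RAB6A siRNA. Its levels did not overlap, 0.167 to 0.428 against 0.0280 to 0.0806 FPKM. With no filter on low values its log2 fold change was −1.32 on the log2(FPKM + 0.1) scale (limma, adjusted p = 0.0162), a value that rests on a few reads.

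The interleukin-1 genes did not move together. Il1a, whose product acts both in the cell and as an alarm signal, was at 7.05, 9.58 and 7.69 FPKM with NC siRNA and at 2.59, 3.41 and 3.26 with RAB6A siRNA. It fell 2.62-fold (log2 fold change −1.36, SE 0.14, n = 3, limma, adjusted p = 8.8e-05), and 19.3% of all genes had a larger change. Il1b was at 14.6, 14.7 and 15.7 FPKM with NC siRNA and at 18.5, 17.3 and 16.2 with RAB6A siRNA, just above and without overlap. Its log2 fold change of 0.21 (SE 0.07, n = 3, limma, adjusted p = 0.0234) was called, but the call was lost when any of 4 single libraries was left out. The adjusted p was then 0.0775 without NC replicate 1, 0.0729 without NC replicate 2, 0.0711 without RAB6A replicate 1 and 0.0568 without RAB6A replicate 2. Il1rn was at 645, 621 and 633 FPKM with NC siRNA and at 312, 336 and 357 with RAB6A siRNA. The antagonist transcript thus fell 1.89-fold (log2 fold change −0.92, SE 0.07, n = 3, limma, adjusted p = 1.76e-05). Il18, which caspase-1 matures as it does Il1b, was at 17.3, 19.9 and 15.9 FPKM with NC siRNA and at 18.6, 16.7 and 14.4 with RAB6A siRNA. The groups overlapped, and the log2 fold change was −0.10 (interval −0.37 to 0.17, limma, adjusted p = 0.462). With GC content and exon length taken out it was −0.38 (limma, adjusted p = 0.0146), so the call for Il18 depended on that correction.

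The ratio of antagonist to agonist transcripts was taken within each library, which removes a scaling factor common to all genes of a library. Shifts tied to GC content, exon length or level are not removed, and the ratio was not taken under corrections for them. The Il1rn to Il1b ratio of FPKM was 44.3, 42.2 and 40.4 with NC siRNA, a mean of 42.3 ± 1.92 (SD, n = 3). With RAB6A siRNA it was 16.8, 19.4 and 22.0, a mean of 19.4 ± 2.58, 2.19-fold lower with no overlap. The log2 difference was −1.13 (SE 0.12), and the exact two-sided permutation test gave 0.1, the smallest p possible. With SFRP2 siRNA it was 51.0, 44.1 and 47.5, a mean of 47.6 ± 3.46, which overlapped NC siRNA (exact permutation p = 0.2). The Il1a to Il1b ratio was 0.484, 0.652 and 0.491 with NC siRNA and 0.140, 0.197 and 0.201 with RAB6A siRNA. This was 3.03-fold lower with no overlap (log2 difference −1.60, SE 0.22, exact permutation p = 0.1). It was 0.617, 0.640 and 0.538 with SFRP2 siRNA, overlapping NC siRNA (exact permutation p = 0.4). The agonist genes Il1a and Il1b lie 54598 bases apart on chromosome 2, on the same strand.

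**Figure D3:**
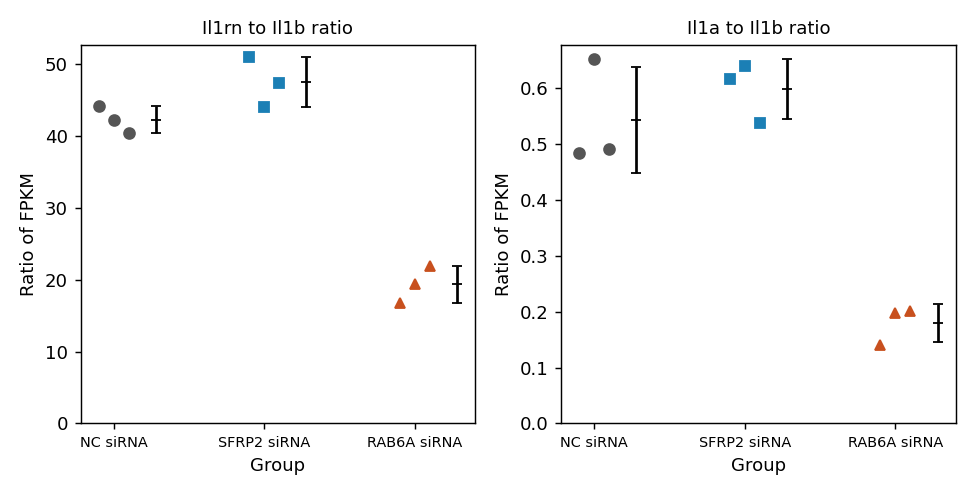
Ratio of FPKM within each library, Il1rn to Il1b (left) and Il1a to Il1b (right), with points for libraries and bars for the mean ± SD of 3. RAB6A siRNA libraries lie at 16.8 to 22.0 and 0.140 to 0.201, below all NC and SFRP2 siRNA libraries.

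Tnf and Il6, the classical early cytokines of the LPS response, were both lower. Tnf was at 1055, 998 and 1096 FPKM with NC siRNA and at 624, 660 and 692 with RAB6A siRNA. It fell 1.59-fold (log2 fold change −0.67, SE 0.07, n = 3, limma, adjusted p = 0.000117), a smaller change than that of 47.5% of genes. The size depended on the scaling between libraries, as it was −1.11 with quantile normalization. After this fall Tnf was still the 68th most abundant gene. Il6 was at 87.0, 106 and 94.3 FPKM with NC siRNA and at 47.3, 47.2 and 54.8 with RAB6A siRNA. All RAB6A libraries lay below all NC libraries, 1.93-fold on the means (log2 fold change −0.94, SE 0.09, n = 3, limma, adjusted p = 6.42e-05).

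Il27 and Lif were higher. Il27 was at 126, 131 and 136 FPKM with NC siRNA and at 236, 248 and 230 with RAB6A siRNA, 1.82-fold higher (log2 fold change 0.86, SE 0.06, n = 3, limma, adjusted p = 1.1e-05). With GC content and exon length taken out the log2 fold change was 0.37, still called. Ebi3, whose product pairs with that of Il27, was at 99.7 to 106 FPKM with NC siRNA and at 198 to 219 with RAB6A siRNA (log2 fold change 1.03, SE 0.06). Transcripts of both chains were thus higher in all 3 RAB6A libraries. Lif was at 9.67, 9.76 and 10.4 FPKM with NC siRNA and at 17.2, 14.2 and 17.3 with RAB6A siRNA, 1.63-fold higher (log2 fold change 0.70, SE 0.09, n = 3, limma, adjusted p = 0.000235).

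Genes next to a cytokine on the chromosome did not all follow it. Tnf lies at chr17:35199381-35202007 (GRCm38, minus strand) in the class III region of the histocompatibility complex, with Lta 1158 bases and Ltb 3061 bases away. Both neighbours encode lymphotoxin chains of the Tnf family. Lta was at 20.9, 20.3 and 21.7 FPKM with NC siRNA and at 48.6, 51.6 and 54.1 with RAB6A siRNA (log2 fold change 1.29, SE 0.06), opposite to Tnf. Ltb, with a log2 fold change of −0.63, was lower, as Tnf was. Il1a lies at chr2:129299610-129309972, and its other neighbour Ckap2l, a spindle protein gene, fell with it (log2 fold change −1.50, SE 0.18). Il27 lies at chr7:126589010-126594941 and overlaps Apobr, a lipoprotein receptor gene on the opposite strand, by 103 exon bases, 10.1% of its exons. Apobr went from 100.1 to 58.8 FPKM while Il27 rose. Strand use in counting was not stated, so reads from the overlap cannot be assigned with certainty. The same holds for 222 bases that Il1a shares with Gm14023 and 25 that Il1b shares with Il1bos. Within 100 kb of the 10 cytokines lay 57 other protein-coding genes, of which 41 were tested and 30 called, 13 higher and 17 lower. This is 73.2% of those tested, near the 74.1% of all genes.

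**Figure D4:**
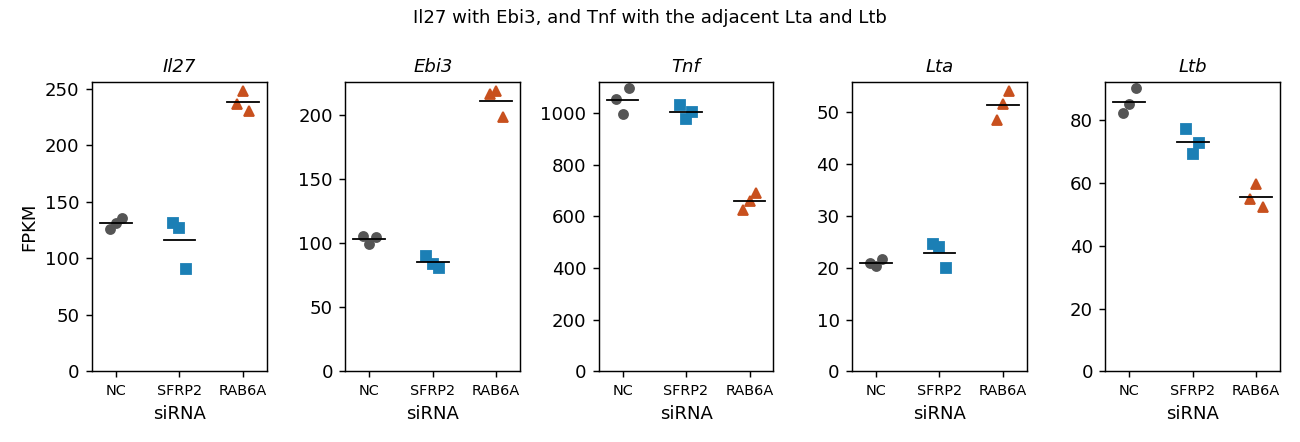
FPKM of Il27 and Ebi3, and of Tnf with the adjacent Lta and Ltb, in each library, with points for libraries and black lines for the mean of 3. With RAB6A siRNA Il27 and Ebi3 are both higher, whereas Lta is higher and Tnf and Ltb are lower.

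Other cytokines outside the 10 split as well. Of 22 listed, 16 were in the table and 10 were tested, 5 higher, 3 lower and 2 not called with RAB6A siRNA. Among all genes tested 37.6% were higher and 36.5% lower. Il11, which signals through Il6st as Il6 and Lif do, was at 0.485, 0.785 and 0.576 FPKM with NC siRNA and at 10.7, 10.5 and 10.4 with RAB6A siRNA. This was 17.1-fold higher (log2 fold change 3.91, SE 0.15). Il23a, the partner of Il12b in interleukin-23, was higher (0.914 to 1.60 FPKM, log2 fold change 0.73), whereas Il12b stood near the detection limit in every group. Osm, the Il6-family gene 16531 bases from Lif, was just called lower (log2 fold change −0.27, limma, adjusted p = 0.0494). Its groups overlapped, at 20.7 to 25.3 FPKM with NC siRNA and 17.1 to 21.3 with RAB6A siRNA. Tgfb1 was lower as well (−0.24).

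Of 15 receptor chains listed, 9 were tested, and 6 were lower and 2 higher with RAB6A siRNA, where 36.5% and 37.6% of all genes were. Tnfrsf1b, the inducible Tnf receptor, went from 60.0 to 22.9 FPKM (log2 fold change −1.39, SE 0.08), whereas Tnfrsf1a, the general Tnf receptor, had 39.5 and 37.1 FPKM (limma, adjusted p = 0.123). The accessory chain Il1rap (−0.93) and the Il6 receptor Il6ra (−0.87) were lower on the log2 scale, as was Il18rap (−0.53). Il6st, the signal chain for Il6, Lif and Il11, was higher (0.60), and so was Il12rb1, a chain of the receptors for interleukins with the Il12b chain (1.92). The chains Il1r1, Lifr, Il27ra, Il18r1, Il12rb2 and Il1r2 were below the filter.

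Genes that process or release these cytokines changed in both directions, 4 higher and 4 lower of the 12 tested. The shares over all genes were 37.6% higher and 36.5% lower. Nlrp3, the inflammasome sensor upstream of caspase-1, was at 64.4 to 67.4 FPKM with NC siRNA and at 7.51 to 9.19 with RAB6A siRNA (log2 fold change −3.02, SE 0.09, 8.16-fold lower). Casp1 itself had 23.1 and 23.2 FPKM (log2 fold change 0.01, interval −0.13 to 0.14). Pycard, the inflammasome adaptor, was at 0 to 0.203 FPKM in all 9 libraries. Adam17, which sheds Tnf from the cell surface, was 2.07-fold lower (log2 fold change −1.05), and Casp8 (−0.40) and Capn2 (−0.31) were lower. Capn1, a calpain of the kind that cuts the Il1a precursor, was higher (0.78), as were the pore protein gene Gsdmd (0.56), the Il18 inhibitor Il18bp (0.55) and the inhibitory receptor Sigirr (1.11).

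Of 17 mRNA decay genes, all tested, 6 were higher, 8 lower and 3 not called, against 37.6% higher and 36.5% lower over all genes. Zfp36, whose product destabilises Tnf mRNA through the AU-rich element shown above, was 2.73-fold higher (156.7 to 427.8 FPKM, log2 fold change 1.45, SE 0.06). Its relative Zfp36l1 was higher too (1.73), as were Rc3h2 (0.91) and Tia1 (0.90). Zc3h12a, which encodes the nuclease Regnase-1 that cleaves Il6 mRNA, was lower (−1.07), and so was Arid5a (−0.98), which encodes a protein that stabilises Il6 mRNA. The deadenylase genes Cnot1 (−0.84) and Cnot7 (−0.63) were lower.

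Of 30 transcription factors and NF-kappaB regulators, 28 were tested, 12 higher, 14 lower and 2 not called. Called genes made up 74.1% of all genes tested, 37.6% higher and 36.5% lower. Maf, a known activator of Il10, went from 13.5 to 0.422 FPKM (log2 fold change −4.71, SE 0.14). Cebpd (−1.99), Irf4 (−1.90) and Fos (−1.13) were the next lowest. Bcl3 (1.28), Fosl2 (1.19), Jun (1.16) and Atf3 (1.09), the latter a repressor of cytokine genes, were the highest. Of the macrophage markers, 4 of the 8 tested fell with RAB6A siRNA and none rose, where 36.5% and 37.6% of all genes did. They were Lyz2 (−2.03), Csf1r (−1.44), Spi1 (−1.05) and Fcgr1 (−0.75), while Cd68, Adgre1, Itgam and Cd14 were not called. Of the markers of other cell types 3 were tested, and 2 were higher, both at low levels. Col1a2, a fibroblast collagen gene, was at 0.248 to 0.402 FPKM with NC siRNA and at 0.695 to 1.04 with RAB6A siRNA (log2 fold change 1.17, SE 0.28). Pecam1, an endothelial gene that leukocytes also express, was at 0.459 to 0.495 and 0.782 to 0.902 FPKM (0.69, SE 0.19). The called marker transcripts changed in the same libraries as the cytokines, and their part in the cytokine changes was not tested. With SFRP2 siRNA no gene of any of these lists was called in the limma fit on FPKM, as no gene tested was.

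**Figure D5:**
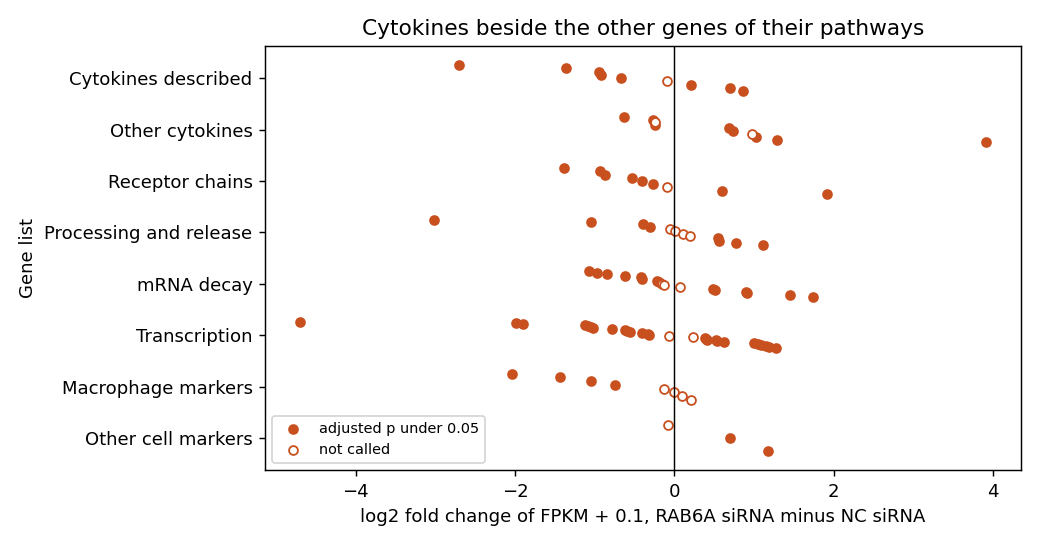
Log2 fold change of FPKM + 0.1 with RAB6A siRNA minus NC siRNA for each tested gene of 8 lists, with filled points for an adjusted p under 0.05 and open points for genes not called. Each list has called genes on both sides of 0 except the macrophage markers, whose called genes are all lower, and the markers of other cells, whose called genes are both higher, and the extremes are Maf at −4.71 and Il11 at 3.91.

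SFRP2 siRNA and RAB6A siRNA were also compared directly. This shares its RAB6A libraries with the comparison above, so it is no independent test. Of the 9 cytokines 8 were called, 5 higher and 3 lower with SFRP2 siRNA, against 73.4% of the 12764 genes tested, and 8 did not overlap, against 77% of genes. Log2 fold changes were 2.59 for Il10, 1.36 for Il1a, 0.93 for Il1rn, 0.81 for Il6 and 0.61 for Tnf. They were −0.37 for Il1b, −0.81 for Lif and −1.05 for Il27, and Il18, at 0.07, did not pass (limma, adjusted p = 0.575). Il1b was called here in every set that left out a library (limma, adjusted p = 0.00563 with all).

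The genes whose profile over the 9 libraries was most like that of a cytokine were found among 12549 genes by the root mean square difference of centred log2(FPKM + 0.1). For Tnf they were Stam2 (0.027), Irf5 (0.028) and Ipo5 (0.030). For Il6 they were Rnf149 (0.061), Nup133 (0.071) and Chtop (0.080), and for Il1b Fbxw17 (0.046), Ptafr (0.055) and Ttyh3 (0.059). All 9 libraries entered this measure.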

How the data were processed

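RNA of 9 RAW264.7 libraries was sequenced as paired-end mRNA libraries. The deposited table gave FPKM per gene, which the authors computed from their reads. Per the submitters' processing notes the tools were HISAT2, featureCounts and Subread, whose versions, genome build and strand setting were not given in the sources used here. The study's methods name a count model for differential expression. The table held FPKM, so the main fit was on FPKM, and that model was not run on the reads recovered from FPKM. Of the 28137 gene identifiers, 27533 were named from GENCODE M21 (GRCm38), and coordinates are from there.

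For each comparison log2(FPKM + 0.1) of the 6 libraries was fitted with limma 3.58.1 in R 4.3.3 (lmFit, eBayes with a trend) for genes with a mean of at least 0.5 FPKM. P-values were adjusted by Benjamini-Hochberg over all genes tested, and genes were called at an adjusted p under 0.05, in a second count also at an absolute log2 fold change over 1. Adjusted p-values in the text are from this fit unless another setting is named. Single values and ratios were compared by exact two-sided permutation (Python 3.11.15). The fit was tested on simulated data. Multiplying FPKM by the summed exon length gave whole reads (within 0.03) in all 9 libraries for 27084 named genes, 98.4%. These reads served a voom alternative. On this scale the size of 1 read gave the depth of each library. The depth was 41608379 to 47149258 with NC siRNA, 34743304 to 40562562 with SFRP2 siRNA and 32758729 to 37833882 with RAB6A siRNA. Read numbers of different groups were thus not taken at equal depth. Reads are not independent molecules, so read numbers speak for counting error only.

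The cytokines and the gene lists were chosen with earlier results of these data known. Named beside the cytokines were Rab6a and Sfrp2, up to 4 called genes each way per list with RAB6A siRNA, the 3 most alike profiles for Tnf, Il6 and Il1b, and adjacent genes. Tnfrsf1a, Casp1, Pycard, Il12b's partner Il23a, Apobr, the genes below the filter and the macrophage markers not called were named for their roles after values were seen. Same-numbered libraries of different groups did not deviate together (mean correlation of deviations −0.0102, lowest −0.0847, highest 0.0477), so the numbers were not taken as pairs. Alternatives were other pseudocounts, filters and scalings, no trend, a replicate block, a fit of all 9 libraries, voom, correction for GC content and length, and leaving out each library.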

Additional observations from a re-analysis of the deposited data

How the results depend on the processing

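With SFRP2 siRNA none of the 9 cytokines was called under any alternative. The count of all genes called moved from 0 to 41 with voom on the recovered reads (0 cytokines), and leaving out a library gave 0 to 1, the 1 without NC siRNA replicate 1. With the replicate block it stayed at 0, with 2988 genes at an unadjusted p under 0.05. With RAB6A siRNA 7 to 9 cytokines were called, and 9103 genes in all with the replicate block. The block took away the call of Il1b (limma, adjusted p = 0.0594) and no other cytokine call. Of the log2 fold changes that passed the threshold none changed sign. Quantile normalization gave −1.11 for Tnf and −1.36 for Il1rn with RAB6A siRNA, and correction for GC content and length gave −0.66 for Il1rn.

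Small log2 fold changes that did not pass the threshold changed sign. With SFRP2 siRNA Tnf was 0.0041 with quantile normalization and 0.0056 with the GC and length correction, Il1a 0.0078 with median-of-ratios scaling and Il1rn −0.10 with the GC and length correction. Over the sets that left out a library, Il1a ran from −0.10 to 0.12 (above 0 without NC replicate 2 or SFRP2 replicate 1 or 3) and Il1rn from −0.019 to 0.029 (below 0 without NC replicate 2 or SFRP2 replicate 3). Il18 ran from −0.099 to 0.063 (above 0 without NC replicate 2 or SFRP2 replicate 3) and Lif from −0.19 to 0.0066 (above 0 without SFRP2 replicate 3). With quantile normalization Il18 was 0.019 for RAB6A siRNA against NC siRNA and −0.036 for SFRP2 siRNA against RAB6A siRNA, where leaving out a library gave −0.023 (without RAB6A replicate 3) to 0.16. The cause was not tested. Depth limits Il12b and Sfrp2, with at most 35 and 4 reads.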
